A study of Mus musculus with 3 samples.

Results

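Collagen chain genes were followed in mouse retina at postnatal day 12 across 1 array labelled Otx2 KI, 1 labelled Crx KO and 1 of wild-type retina. A gene was a member when a probe's RefSeq accession mapped to a symbol of the form Col, number, a, number, which gave 44 genes on 64 probes, among 21366 named genes on 55681 probes in all. These 44 are all such symbols in the RefSeq gene table, and 0 of them lie on the chromosome of Crx or on that of Otx2. The labels call the tissue retina and give KI and KO (the usual short forms of knock-in and knockout) with no allele, locus, strain, sex or number of mice, so the alleles cannot be described further. Per the labels, retinas were taken with forceps and their RNA was extracted with QIAzol. The question set by the submitters is a comparison of gene expression across these genotypes. With 1 array for each genotype there is no replicate check, no test across samples and no p-value, and every difference describes these RNA preparations.

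Collagens are triple helices of 3 chains in which glycine recurs at the start of each repeat. Fibrillar chains form the ropes of connective tissue, type IV chains form the network of basement membranes, fibril-associated chains decorate fibrils and cannot form them alone, and further chains form beaded filaments, short-chain networks or membrane proteins. In the eye, type IV networks lie in the inner limiting membrane, around retinal vessels and in Bruch's membrane, while types II and IX form the fibrils of the vitreous. Crx and Otx2 are homeodomain transcription factors of photoreceptors and bipolar cells.

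Values are scaled signals, the scanner's background-subtracted Cy3 intensity after each array was divided by its 75th percentile and put on the wild-type scale. A signal is compared only between arrays for the same probe, since probes differ in brightness. On the arrays labelled Otx2 KI and Crx KO and on wild-type, 63.5%, 67.1% and 66.6% of 59305 spots passed the scanner software's test for lying well above background, and 0 were saturated. A signal that did not pass it is called dim. The probe for Crx read 1062 in Otx2 KI, 7177 in Crx KO and 9790 in wild-type, and that for Otx2 read 63860, 62981 and 40886 in the same order. That is 9.22-fold lower for Crx in Otx2 KI and 1.36-fold lower in Crx KO, and 1.56-fold and 1.54-fold higher for Otx2. Where the Crx probe lies with respect to the altered sequence is unknown, so it does not check the labels, and "Otx2 KI" and "Crx KO" stand for the arrays so labelled. All 12 photoreceptor markers were well above background on the wild-type array. In Otx2 KI 9 of 11 measured photoreceptor markers were lower past 2-fold, that is by 2-fold or more (median log2 difference -3.45), and in Crx KO 9 of 11 were lower (median -2.54). In whole retina, fewer cells of a type and less RNA per cell cannot be told apart.

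Most collagen genes lay close to wild-type in both mutant arrays, and a few lay far from it. Of the 44 genes, 37 were well above background on all 3 arrays, 2 on the wild-type array only (Col4a3 and Col15a1) and 5 on none (Col6a5, Col6a6, Col13a1, Col19a1 and Col28a1, at 2.22 to 14.1 with no order among them). In Otx2 KI 1 of 37 measured collagen genes was higher past 2-fold and 4 were lower, where 1.35% and 2.53% of all 15809 measured genes were. In Crx KO 3 of 37 were higher and 5 lower, where 1.95% and 3.43% of all 16048 measured genes were. The same shares stand beside the class and list counts against wild-type given elsewhere. The median log2 difference of the collagen genes was -0.10 in Otx2 KI, beside 0.03 over all genes, and -0.05 in Crx KO, beside -0.01 over all genes. With normexp background correction, which adds an offset to each signal, it was 0.0022 in Otx2 KI, beside 0.027 over all genes, and 0.023 in Crx KO, beside 0.00061 over all genes. With the authors' deposited value table, a rescaling that shifts all genes alike, it was 0.0030 in Crx KO, beside 0.049 over all genes. On the main scale their middle range was wider, from -0.43 to 0.15 in Otx2 KI and from -0.34 to 0.33 in Crx KO, against -0.14 to 0.17 and -0.20 to 0.16 over all genes. No such range is given with normexp or for genes of like brightness, so the wider range is not read as a trait of collagens. The wild-type array is shared by both comparisons, so a gene that reads high or low there moves in both. At a lower threshold of 1.5-fold, 2 collagen genes were higher and 8 lower in Otx2 KI, where 3.66% and 6.35% of all measured genes were, and 6 were higher and 7 lower in Crx KO, where 5.02% and 8.24% were.

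**Figure D1:**
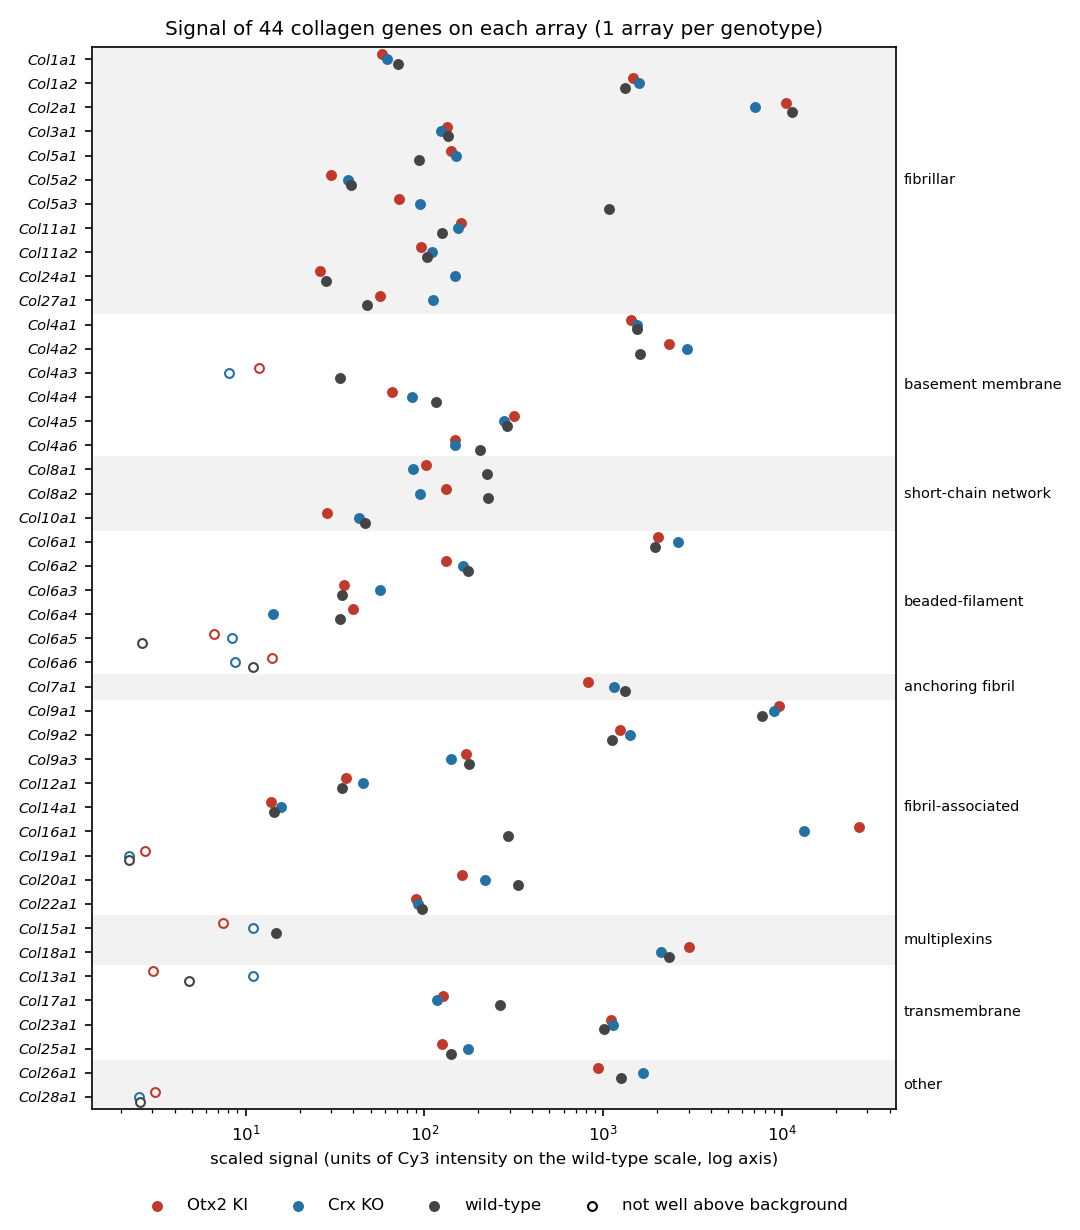
Scaled signal (log axis) of the 44 collagen genes on the Otx2 KI, Crx KO and wild-type arrays, 1 point per array, grouped by structural class; open points were not well above background. Points are to be compared within a row: most rows cluster tightly, while Col16a1 (26926, 13241 and 294) and Col5a3 (71.8, 94.2 and 1082) are spread widely.

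The promoters of the collagen gene with the largest increase, the one with the largest decrease and the one that most separated the mutants were read to show what lies upstream of them. Each is the 250 bases before the gene's start in RefSeq on GRCm38.p6, 5′ to 3′ on the gene's strand, at chr4:130047590-130047839 (plus strand) for Col16a1, chr9:20815068-20815317 (minus strand) for Col5a3 and chr3:145292222-145292471 (plus strand) for Col24a1. Capitals mark the 4-base homeodomain core TAAT, or its reverse complement ATTA.
Col16a1: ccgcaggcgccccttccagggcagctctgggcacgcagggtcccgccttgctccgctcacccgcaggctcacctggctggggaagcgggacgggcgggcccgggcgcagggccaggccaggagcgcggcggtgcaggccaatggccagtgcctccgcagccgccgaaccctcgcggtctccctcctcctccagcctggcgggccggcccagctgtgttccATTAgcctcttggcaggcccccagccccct
Col5a3: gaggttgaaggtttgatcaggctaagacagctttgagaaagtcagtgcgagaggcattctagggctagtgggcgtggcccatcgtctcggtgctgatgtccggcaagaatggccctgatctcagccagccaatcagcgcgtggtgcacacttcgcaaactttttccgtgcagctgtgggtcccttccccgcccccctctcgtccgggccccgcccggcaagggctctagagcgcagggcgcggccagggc
Col24a1: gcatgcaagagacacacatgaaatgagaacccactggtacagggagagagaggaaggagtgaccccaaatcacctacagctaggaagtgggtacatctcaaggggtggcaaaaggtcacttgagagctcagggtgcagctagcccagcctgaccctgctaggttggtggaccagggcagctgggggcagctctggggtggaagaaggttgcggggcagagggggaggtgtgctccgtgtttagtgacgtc
The Col16a1 window holds 1 core, beginning 30 bases before the start, with 75.6% G+C and 21 CpG dinucleotides. The Col5a3 window holds 0 cores, with 62.8% G+C and 17 CpG, and the Col24a1 window 0 cores, with 58.0% G+C and 3 CpG. The longer motif TAATCC, a preferred site of Crx and Otx2, was searched on both strands, and any copy of it also contains TAAT. It was in 0 of 38 windows of the 35 collagen genes with an entry, where 6.25% of 32851 windows of all genes held it. The core TAAT was in 13 of the 38 (34.2%), where 54.9% of all windows held it. Collagen windows had a median of 59% G+C, beside 52.4% over all windows. A match or its absence describes the letters of these windows. The arrays' own design refers to mm9, and none of its coordinates is used here.

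Col16a1 encodes the single chain of type XVI collagen, a fibril-associated collagen that connects fibrils and cells to the surrounding matrix. It had the largest increase of all 15809 measured genes in Otx2 KI and ranked 3 of 16048 in Crx KO. The brightest of its 3 probes, A_55_P2056739, read 26926 in Otx2 KI and 13241 in Crx KO, against 294 in wild-type. That is 91.7-fold higher in Otx2 KI (log2 6.52, with a scanner software error of 0.20 for the difference) and 45.1-fold higher in Crx KO (log2 5.49, error 0.20). Both mutant arrays were therefore far above wild-type, by many times the measurement error. Probe A_55_P2124751 read 5639 in Otx2 KI and 2577 in Crx KO, against 71.6 in wild-type, which is 78.7-fold and 36.0-fold higher. The dimmest probe, A_55_P2056735, read 69.3 in Otx2 KI and 55.7 in Crx KO, while its wild-type signal was dim, so it gives at least 6.82-fold and at least 5.48-fold, bounds set by the lowest signal that passed on the wild-type array. The direction was thus the same on all 3 probes. Averaging the 3 probes, the wild-type signal of the third included as measured, gives log2 5.52 for Otx2 KI and 4.70 for Crx KO.

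Col16a1 also differed between the mutant arrays, by an amount that depends on the probe. Its Otx2 KI signal was 2.03-fold above that of Crx KO on the brightest probe (log2 1.02), 2.19-fold on the next (log2 1.13) and 1.25-fold on the dimmest (log2 0.32). On the brightest probe it was within 2-fold after quantile normalization (log2 0.91), with the authors' deposited value table (0.97) and with normexp background correction (0.99). Its neighbours did not share a change of this size. Of the 10 nearest measured genes, 5 on each side, 0 were past 2-fold in Otx2 KI, with log2 differences of -0.55 to 0.76. In Crx KO 1 of the 10 was, Hcrtr1, an orexin receptor gene named after its value was seen (log2 1.14).

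Col5a3 was the collagen gene furthest below wild-type. It encodes the alpha 3 chain of type V collagen, a minor fibrillar collagen that is built into fibrils of other types. Its single probe read 71.8 in Otx2 KI and 94.2 in Crx KO, against 1082 in wild-type. It was 15.1-fold lower in Otx2 KI (log2 -3.91, scanner error 0.21) and 11.5-fold lower in Crx KO (log2 -3.52, error 0.21), and with normexp the values were log2 -2.94 and -2.75. Among all measured genes it ranked 18 from the lowest in Otx2 KI and 29 in Crx KO. The mutant arrays differed by 1.31-fold (log2 -0.39), which is below 2-fold. The chains that share trimers with it did not follow: Col5a1 had log2 differences of 0.60 in Otx2 KI and 0.70 in Crx KO, and Col5a2 of -0.37 and -0.05. The summed signal of the 12 photoreceptor markers was also lower in the mutants, at 245521 in Otx2 KI and 276428 in Crx KO against 785038 in wild-type, and its part in the low Col5a3 signal was not tested. Of the 10 nearest measured genes 1 was past 2-fold in Otx2 KI, Rdh8, a photoreceptor retinol dehydrogenase gene named after its value was seen (log2 -1.41), and 0 were in Crx KO (log2 -0.61 to 0.48).

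**Figure D2:**
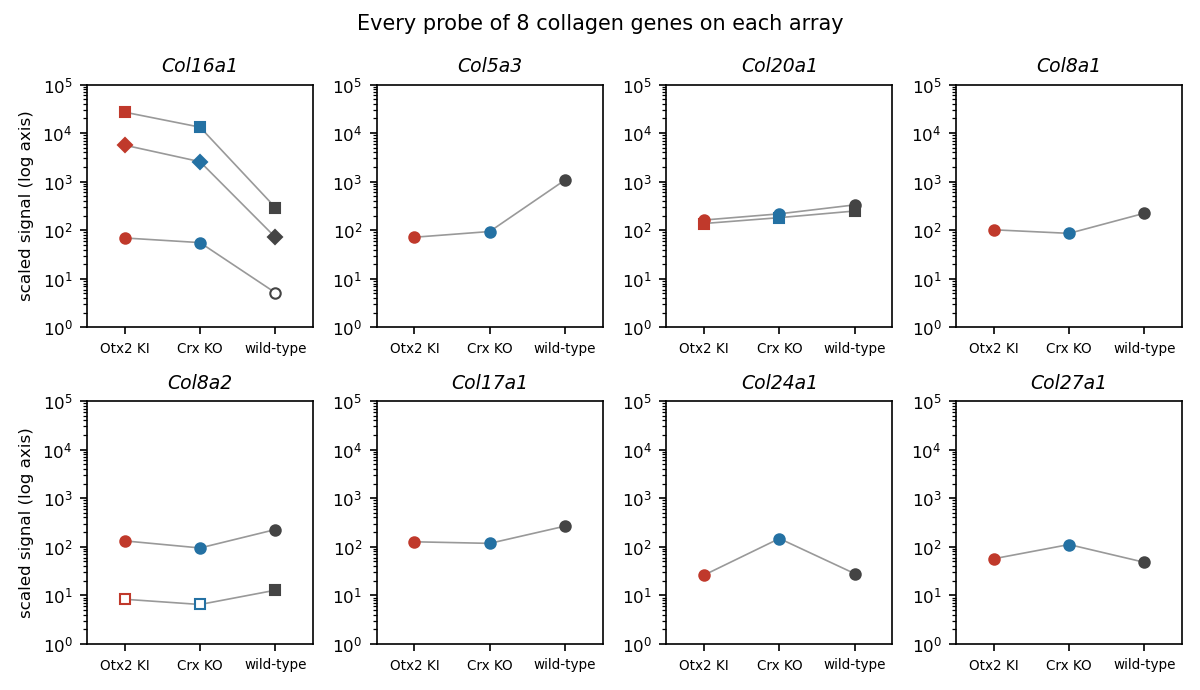
Scaled signal (log axis) of every probe of 8 collagen genes on the Otx2 KI, Crx KO and wild-type arrays; each line joins 1 probe, and open markers were not well above background. All 3 Col16a1 probes are higher in both mutants, Col5a3 is lower in both, and Col24a1 is high on the Crx KO array only (148, against 26.1 in Otx2 KI and 28.0 in wild-type).

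Col24a1 and Col27a1 were highest on the Crx KO array. They encode the fibrillar collagens of types XXIV and XXVII, which differ from the classical fibrillar chains by short interruptions of the helix. Col24a1 read 26.1 in Otx2 KI, 148 in Crx KO and 28.0 in wild-type. The Crx KO signal was 5.28-fold above wild-type (log2 2.40, scanner error 0.25, and 1.16 with normexp), and the Otx2 KI signal was within the scanner error of it (log2 -0.10, error 0.30). Set directly against Crx KO it was 5.65-fold lower in Otx2 KI (log2 -2.50, and -1.15 with normexp). Crx KO was therefore the array that stood apart. Col27a1 read 56.6 in Otx2 KI, 111 in Crx KO and 47.9 in wild-type, which is 2.32-fold higher in Crx KO (log2 1.21) and 1.18-fold higher in Otx2 KI (log2 0.24). With normexp the Crx KO value was log2 0.63, within 2-fold. Each gene rests on a single probe.

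The other fibrillar chains were within 2-fold in both mutant arrays. Of 11 measured fibrillar genes, 0 were higher and 1 lower past 2-fold in Otx2 KI, and 2 were higher and 1 lower in Crx KO, all named above. The shares over all measured genes were 1.35% higher and 2.53% lower in Otx2 KI, and 1.95% and 3.43% in Crx KO. Col2a1, the chain of type II collagen of cartilage and vitreous, read 10465 in Otx2 KI and 7083 in Crx KO, against 11324 in wild-type (log2 -0.11 and -0.68). Crx KO was thus the lowest, 1.60-fold below wild-type and 1.48-fold below Otx2 KI. Col1a1 and Col1a2, the chains of type I collagen, had log2 differences of -0.31 and 0.16 in Otx2 KI and of -0.21 and 0.26 in Crx KO. Col3a1, the chain of type III collagen, was at -0.02 and -0.14. Fibroblast markers that would accompany connective tissue had summed signals of 1850 in Otx2 KI and 1620 in Crx KO, against 1629 in wild-type, with Dpt, Twist1, Twist2 and Dpep1 dim on every array. The cartilage-type chains Col11a1 (log2 0.35 in Otx2 KI and 0.30 in Crx KO) and Col11a2 (-0.12 and 0.09) lay close to wild-type.

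Type IV collagen, the scaffold of basement membranes, is encoded by 6 genes in 3 head-to-head pairs. The first pair forms the common network of vessels. Col4a1 was read by 10 replicate spots of 1 probe, with medians of 1434 in Otx2 KI and 1551 in Crx KO, against 1533 in wild-type. The spots ranged from 1347 to 1523 in Otx2 KI, from 1491 to 1613 in Crx KO and from 1487 to 1591 in wild-type, so those of Crx KO and wild-type overlapped widely. Replicate spots are technical and give the precision within an array (SD 0.05, 0.04 and 0.04 on the log2 scale in the same order). Its pair Col4a2 read 2340 in Otx2 KI and 2924 in Crx KO, against 1597 in wild-type. That is 1.46-fold higher in Otx2 KI (log2 0.55) and 1.83-fold higher in Crx KO (log2 0.87), below 2-fold in both but above the scanner error of 0.20. Vessel markers mostly lay below wild-type, with 0 past 2-fold. The summed signal of 10 endothelial markers was 24127 in Otx2 KI and 23067 in Crx KO, against 25139 in wild-type (medians log2 -0.21 and -0.30). That of 10 mural cell markers was 4415 and 3946, against 5141 (medians -0.22 and -0.45). All measured mural markers lay below wild-type, 9 in Otx2 KI, where Des was dim, and 10 in Crx KO.

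Of the other type IV chains only Col4a3 was past 2-fold. Col4a3, whose chain forms the mature network of kidney, lung and eye with those of Col4a4 and Col4a5, was dim in both mutants (11.8 in Otx2 KI and 8.06 in Crx KO) and read 33.7 in wild-type. It was at least 2.72-fold lower in Otx2 KI and at least 3.39-fold lower in Crx KO. Of genes well above background on 1 of the arrays compared, 12.2% were at least 2-fold lower in Otx2 KI and 13.8% in Crx KO. Those genes include ones dim in wild-type only, which could not be called lower, so the share understates that of genes like Col4a3. With normexp the Col4a3 values were log2 -0.36 and -0.45. Its pair Col4a4 read 66.2 in Otx2 KI and 84.7 in Crx KO, against 116 in wild-type (log2 -0.80 and -0.45). Col4a5, on the X chromosome, was at log2 0.13 and -0.06. Its pair Col4a6 had 2 probes with different signs, at log2 -0.45 and 0.44 in Otx2 KI and at -0.45 and 0.00 in Crx KO, so no direction can be given for it.

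Of 3 measured short-chain collagens 1 was lower past 2-fold in Otx2 KI and 2 in Crx KO. Over all measured genes 2.53% and 3.43% were lower. Col8a1 and Col8a2 encode the chains of type VIII collagen, a sheet-forming collagen of Descemet's membrane and of vessel walls. Col8a1 read 102 in Otx2 KI and 86.3 in Crx KO, against 224 in wild-type, which is 2.19-fold lower in Otx2 KI (log2 -1.13) and 2.59-fold lower in Crx KO (log2 -1.37). Col8a2 read 132 in Otx2 KI and 94.4 in Crx KO, against 226 in wild-type, which is 1.71-fold lower (log2 -0.78) and 2.39-fold lower (log2 -1.26). Crx KO thus read lowest for both chains, but for Col8a1 the mutants differed by log2 0.24, with a scanner error of 0.21. With normexp all 4 values were within 2-fold, at log2 -0.72 and -0.88 for Col8a1 and at -0.59 and -0.90 for Col8a2. A second Col8a2 probe was dim in both mutants and read 12.8 in wild-type. Its bounds, at least 1.03-fold and at least 1.28-fold lower, do not reach 2-fold. Col10a1, the related chain of growth cartilage, was at log2 -0.70 in Otx2 KI and -0.11 in Crx KO.

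Col17a1, a transmembrane collagen that anchors epithelial cells to the basement membrane, read 127 in Otx2 KI and 117 in Crx KO, against 266 in wild-type. It was 2.10-fold lower in Otx2 KI (log2 -1.07) and 2.26-fold lower in Crx KO (log2 -1.18), and within 2-fold with normexp (log2 -0.74 and -0.79). Col7a1, the anchoring fibril chain of epithelia, read 823 in Otx2 KI and 1147 in Crx KO, against 1319 in wild-type (log2 -0.68 and -0.20). Pigment epithelium and melanocyte markers lay below wild-type on the same arrays. Their summed signal was 28120 in Otx2 KI and 21170 in Crx KO, against 37769 in wild-type. Past 2-fold, 2 of 12 measured markers were lower in Otx2 KI (median log2 -0.82) and 7 of 11 in Crx KO (median -1.61), or 1 and 6 with normexp. Best1 was dim on every array. The part of these cells in the low type VIII and XVII signals was not tested. The other transmembrane chains were close to wild-type, with Col23a1 at log2 0.13 in Otx2 KI and 0.17 in Crx KO on its brightest probe and Col25a1 at -0.16 and 0.31. Another probe of Col23a1 gave -0.23 and -0.07, and the measured probes of Col25a1 ranged from -0.16 to 0.48 and from -0.09 to 0.35.

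**Figure D3:**
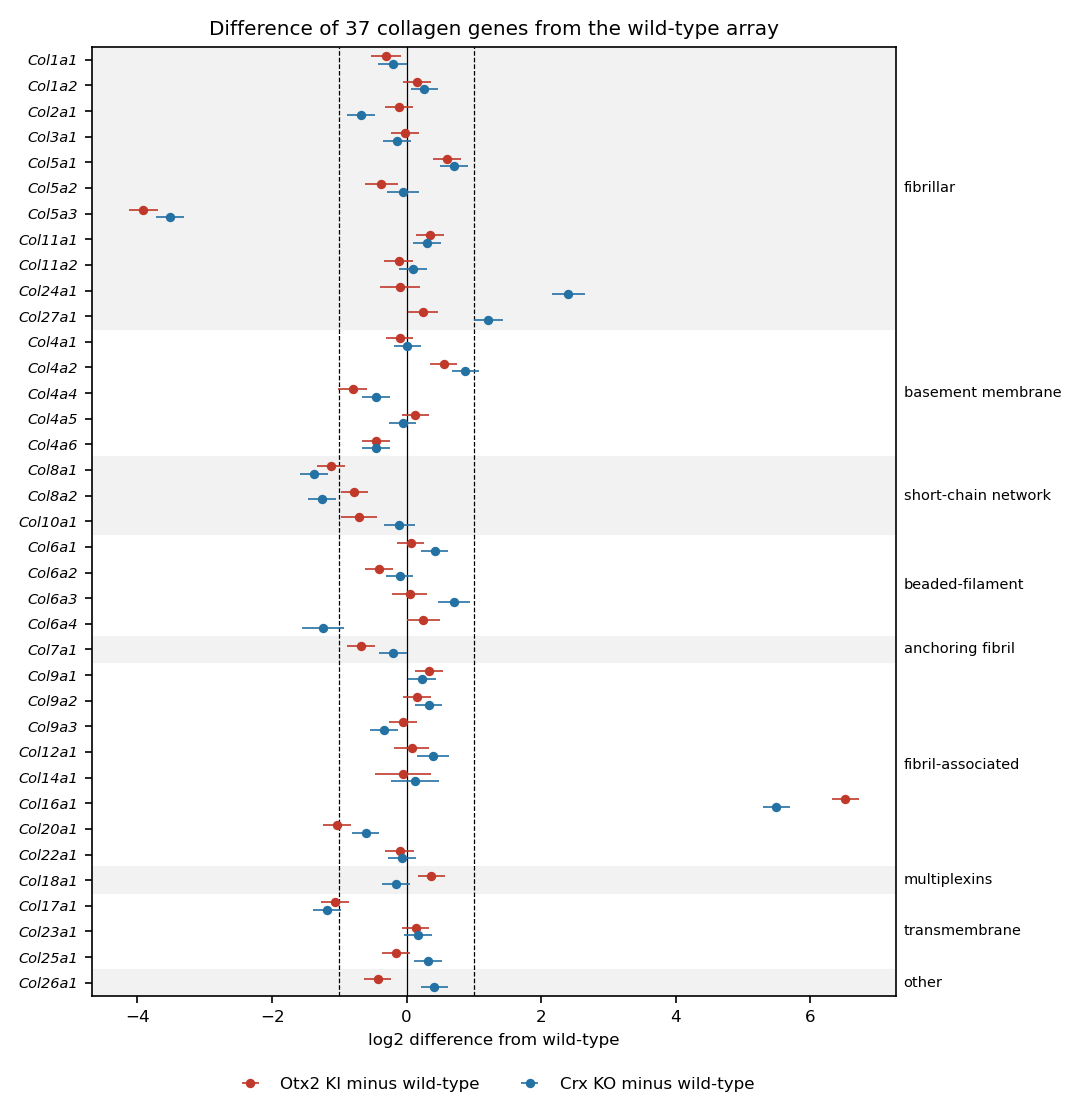
Log2 difference from wild-type of the 37 collagen genes well above background on every array, for Otx2 KI and Crx KO; bars are the scanner software's error of the difference, not a spread between mice, and dashed lines mark 2-fold. Most points lie between the dashed lines; Col16a1 (6.52 and 5.49) and Col5a3 (-3.91 and -3.52) lie furthest out, and Col24a1 (-0.10 and 2.40) differs between the mutants.

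Among the fibril-associated collagens Col16a1 was the only one higher past 2-fold. Of 8 measured members 1 was higher and 1 lower in Otx2 KI (median log2 0.01), and 1 was higher and 0 lower in Crx KO (median 0.18). All measured genes had shares of 1.35% higher and 2.53% lower in Otx2 KI, and 1.95% and 3.43% in Crx KO. Col20a1, a collagen of embryonic tissues in chick, was the lower one. Its brighter probe read 162 in Otx2 KI and 218 in Crx KO, against 333 in wild-type (log2 -1.03 and -0.61), and its second probe read 138 and 182, against 249 (log2 -0.85 and -0.45). The probes had the same sign but lay on either side of 2-fold in Otx2 KI, and with normexp the first was at log2 -0.82. The type IX chains, which coat type II fibrils in vitreous and cartilage, were close to wild-type: Col9a1 read 9658 in Otx2 KI and 9009 in Crx KO, against 7683 in wild-type (log2 0.33 and 0.23). Col9a2 was at log2 0.15 and 0.33, and Col9a3 at -0.06 and -0.34. Col12a1, Col14a1 and Col22a1 lay between log2 -0.11 and 0.39 in both mutants. Of these, Col14a1 read only 13.9 in Otx2 KI, 15.7 in Crx KO and 14.4 in wild-type, near the lowest passing signals. Its scanner errors were 0.41 in Otx2 KI and 0.36 in Crx KO, and its second probe was dim in Otx2 KI.

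Beaded-filament chains gave 1 difference past 2-fold. Col6a1 and Col6a2, the common chains of type VI collagen, had log2 differences of 0.06 and -0.41 in Otx2 KI and of 0.42 and -0.10 in Crx KO. Col6a1 read 2032 in Otx2 KI, 2605 in Crx KO and 1951 in wild-type. Col6a3, the chain that completes the usual trimer, was at log2 0.05 in Otx2 KI and 0.71 in Crx KO. Col6a4 read 40.0 in Otx2 KI, 14.3 in Crx KO and 33.7 in wild-type, so Crx KO was 2.37-fold lower than wild-type (log2 -1.24, scanner error 0.32). Its second probe was dim on every array, and with normexp the difference was log2 -0.28.

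The multiplexins carry the parent chains of angiogenesis inhibitors. Col18a1, a basement membrane proteoglycan core and the source of endostatin, read 3017 in Otx2 KI and 2093 in Crx KO, against 2340 in wild-type (log2 0.37 and -0.16). Its second probe gave log2 0.30 and -0.25, and the scanner error of each of these differences was 0.20. Both probes thus placed Otx2 KI above wild-type by more than that error, within 2-fold. In Crx KO the first probe's difference was smaller than the error and the second's slightly larger. Col15a1 was dim in both mutants and read 14.8 in wild-type, with bounds of at least 1.20-fold and at least 1.35-fold lower that do not reach 2-fold. Col26a1 read 934 in Otx2 KI, 1671 in Crx KO and 1258 in wild-type (log2 -0.43 and 0.41), with the mutants on opposite sides of wild-type.

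Set directly against Crx KO, Otx2 KI had 2 of 37 collagen genes higher past 2-fold and 1 lower, where 0.677% and 0.645% of all 15805 measured genes were, and the median was log2 -0.12 beside 0.04 over all genes. At 1.5-fold the counts were 2 and 5, where 2.44% and 2.31% of all genes were. The higher genes past 2-fold were Col6a4 (2.80-fold, log2 1.49, and 0.48 with normexp) and Col16a1, and the lower was Col24a1. Col27a1 lay just under 2-fold, at 1.96-fold lower in Otx2 KI (log2 -0.97).

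Genes that make, cut, bind and remove collagen were listed to see whether they moved with the chains. Of 28 measured genes of collagen synthesis and processing 1 was higher past 2-fold and 0 lower in each mutant, with medians of log2 0.05 in Otx2 KI and 0.03 in Crx KO. The higher gene was Pcolce in both, which encodes an enhancer of procollagen C-propeptide cleavage. It read 1741 in Otx2 KI and 1822 in Crx KO, against 795 in wild-type (2.19-fold and 2.29-fold, and log2 1.09 and 1.17 with normexp). Loxl4, a lysyl oxidase that cross-links collagen, was dim in both mutants and read 104 in wild-type, at least 8.38-fold lower in Otx2 KI and at least 10.5-fold lower in Crx KO (log2 -1.31 and -1.24 with normexp). Of 8 measured collagen receptors 0 were past 2-fold in either mutant (medians -0.15 and -0.27), and the same held for 17 measured basement membrane partners such as laminins and nidogens (medians -0.03 and -0.20).

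Among proteases and their inhibitors 1 gene was past 2-fold against wild-type, and among fibril-binding genes several were. Of 11 measured proteases and inhibitors 0 were past 2-fold in Otx2 KI and 1 in Crx KO. That gene was Fap, a surface protease of activated fibroblasts, which read 304 in Otx2 KI and 185 in Crx KO, against 512 in wild-type (log2 -0.75 and -1.47). Of 9 measured fibril-binding genes 1 was higher and 1 lower in each mutant. Over all measured genes the shares were 1.35% and 2.53% in Otx2 KI and 1.95% and 3.43% in Crx KO. Optc, which encodes opticin, a proteoglycan on vitreous fibrils, was 3.26-fold higher in Otx2 KI (1878 against 576 in wild-type, and log2 1.59 with normexp) and read 808 in Crx KO (log2 0.49). Dcn, which encodes the fibril-binding proteoglycan decorin, read 35.2 in Otx2 KI and 107 in Crx KO, against 30.6 in wild-type, and was 3.49-fold higher in Crx KO (log2 1.80, and 0.73 with normexp). Thbs1, which encodes thrombospondin 1, was 2.02-fold lower in Otx2 KI and 2.61-fold lower in Crx KO (log2 -0.73 and -1.01 with normexp). Comp, a cartilage matrix gene, was dim in both mutants and read 25.2 in wild-type, at least 2.03-fold and at least 2.53-fold lower (log2 -0.30 and -0.21 with normexp).

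Markers of other tissues and of glia were also compared between the arrays. Lens markers, mostly crystallin genes, were higher in Otx2 KI (5 of 11 past 2-fold, median log2 0.63, or 1 of 11 and 0.37 with normexp). Over all measured genes 1.35% were higher past 2-fold there. Averaging all probes of a gene put Cryaa (log2 0.97) and Crygc (0.69) within 2-fold in Otx2 KI, and Crygc below wild-type in Crx KO (-0.67). In Crx KO 0 of 10 lens markers were past 2-fold, 3 lay above wild-type and 7 below (median -0.70, or -0.26 with normexp). Their summed signal was 1641 in Otx2 KI and 680 in Crx KO, against 963 in wild-type, with Mip and Lim2 dim on every array. Whether lens adhered to the retinas was not tested. Of 6 measured fibroblast markers Fbln1 was 2.11-fold higher in Otx2 KI (within 2-fold with normexp), and 0 were past 2-fold in Crx KO. Muller glia markers (10 measured) had medians of 0.11 and 0.26, astrocyte markers (5 measured) of 0.26 and 0.22, and microglia markers (10 measured) of 0.14 and -0.31, with 0 past 2-fold. The summed signal of the Muller glia list was 137554 in Otx2 KI and 157950 in Crx KO, against 129591 in wild-type. The part of these cells in the collagen differences was not tested.

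**Figure D4:**
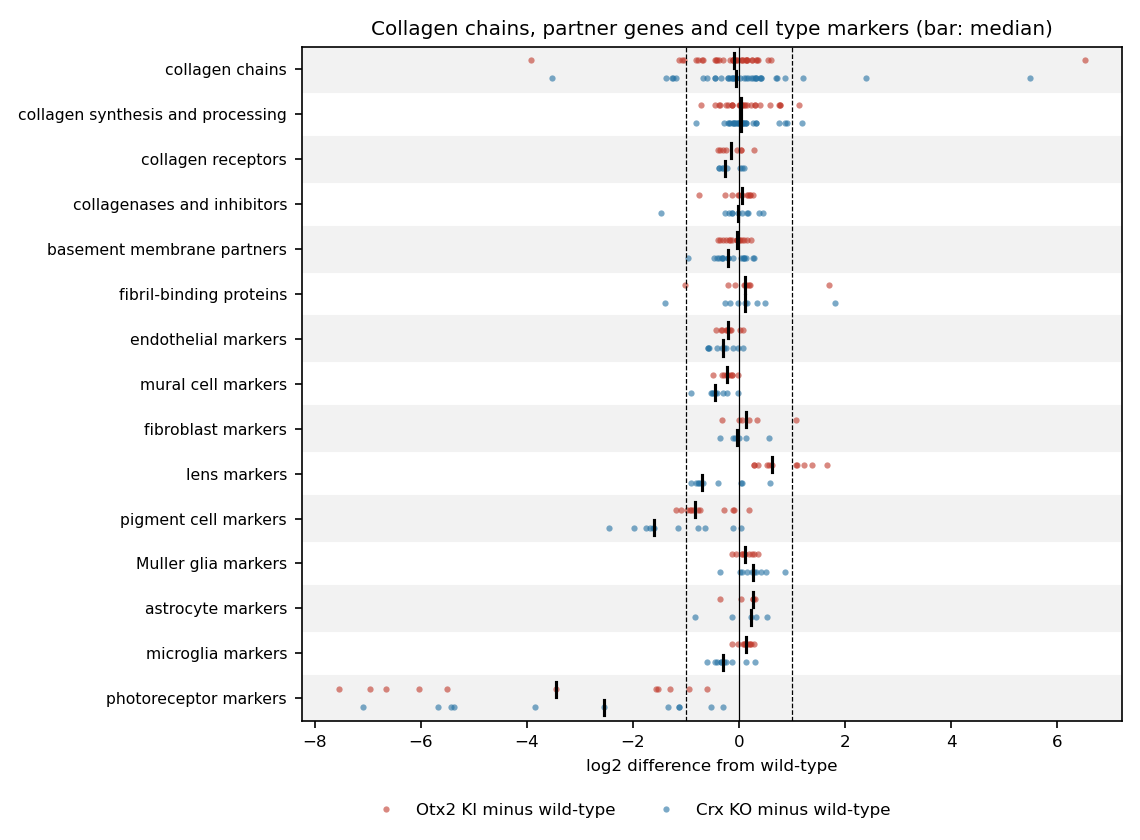
Log2 difference from wild-type of each measured gene in the collagen chains, partner lists and cell type marker lists, for Otx2 KI and Crx KO; each point is a gene, the black bar is the list's median and dashed lines mark 2-fold. Partner lists centre near 0 (-0.27 to 0.11), while photoreceptor markers (-3.45 and -2.54) and pigment cell markers (-0.82 and -1.61) lie below it.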

How the data were processed

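RNA from P12 mouse retina was hybridised to 1-colour Agilent arrays, 1 each for Otx2 KI, Crx KO and wild-type. Per the file headers, the deposited Cy3 intensity values come from Agilent Feature Extraction 12.0.3.1 on 1 slide, with an array design on mm9. Position on the slide and genotype are confounded and cannot be told apart. In the value table that the authors deposited, each array's processed signal is multiplied by 1 constant (2.54, 2.61 and 2.49 for Otx2 KI, Crx KO and wild-type; column medians 125.7, 135.8 and 129.8). That table is linear and uncentred, and no source used here gives the origin of the constants.

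Control spots and 132, 126 and 136 outlier spots were left out, and replicate spots were averaged per probe. Each array's 75th percentile was taken off its log2 signal (564, 570 and 574 units). Accessions were matched without versions to RefSeq genes of GRCm38.p6, naming 28331 probes (50.9%). The brightest probe stood for a gene. Of the members 30 have 1 probe and 14 have more. A gene was measured when well above background on both arrays compared. When it was so on 1 array, an at-least fold was given against the lowest passing signal of the dim array (12.4, 9.94 and 10.2), or the gene's own signal there if that was higher. Calls were made at 2-fold. The scanner error has a median of 0.20 for a log2 difference. The number of arrays limits precision.

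The members and the gene lists were chosen with earlier results of these data known, so their counts support nothing on their own. Named genes were all collagen genes past 2-fold or with disagreeing probes, up to 3 bright ones per class, Crx and Otx2, and up to 4 past 2-fold per other list. The text also names further collagen genes, chosen with values seen, so that each member is accounted for. Alternatives were normexp on median signals (offset 50; limma 3.58.1, and the files hold no mean signal), quantile normalization, median centring, the authors' table, averaged probes, no filter and 1.5-fold. Steps were tested on simulated data. Python 3.11.15, numpy 2.4.6 and pandas 2.3.3 were used.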

Additional observations from a re-analysis of the deposited data

How the results depend on the processing

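No paired analysis was possible because each genotype has 1 array and no result comes from a test. Of 111 differences of measured collagen genes (37 genes in 3 comparisons), 10 crossed 2-fold with normexp, 4 with all probes of a gene averaged, 2 with the authors' deposited value table, 1 with quantile normalization and 0 with median centring or without the filter. None of those past 2-fold changed sign under any alternative run. The causes were not tested. With normexp, which adds 50 units to every signal, 1 collagen gene was lower past 2-fold in Otx2 KI and 1 in Crx KO, Col5a3 in each, and 0 had Otx2 KI above Crx KO. At 1.5-fold 2 were higher and 8 lower in Otx2 KI, 6 were higher in Crx KO, and 5 had Otx2 KI below Crx KO. Without the filter on dim probes 2 were higher in Otx2 KI and 5 in Crx KO, and 2 had Otx2 KI below Crx KO, the genes so added being dim on both arrays compared; the lower counts of 5 in Otx2 KI and 6 in Crx KO add Col4a3, which is dim in the mutants only. Between the mutants, 1 gene was higher in Otx2 KI with quantile normalization, 1 higher and 2 lower with the authors' table, and 0 higher with probes averaged. Except at 1.5-fold, these counts have no share over all genes beside them and are not read as a result about collagens. Averaging only probes well above background on all arrays, chosen after seeing the data, put Col20a1 within 2-fold (log2 -0.94). The medians of the collagen genes moved by less than the median scanner error of 0.20 under each alternative, and those against wild-type were above 0 with normexp (0.0022 in Otx2 KI and 0.023 in Crx KO, beside 0.027 and 0.00061 over all genes). For Crx KO the authors' table, which shifts all genes alike, gave 0.0030 beside 0.049 over all genes. Signals near background limit Col4a3, Col6a4, Col14a1, Col15a1 and Col24a1.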
